A study of Sus scrofa with 4 samples.

Results

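PDK4, UCP3 and PPARGC1A are 3 genes of muscle fuel choice, taken by symbol from the 22658 features of the expression table of longissimus dorsi (LD) muscle, the long muscle of the back. Each symbol matched 1 feature, and all 3 features were among the 13314 that were tested (a mean of at least 10 counts at any age). PDK4, UCP3 and, in a comparison of breeds, PPARGC1A are also among the genes that the study itself drew attention to. It did so from the same libraries, so their behaviour here is not independent evidence. PDK4 (ENSSSCG00000015334) lies on the minus strand at chr9:82625077-82638277 of the pig build Sscrofa10.2 and UCP3 (ENSSSCG00000014834) on the minus strand at chr9:9166711-9179299. PPARGC1A (ENSSSCG00000029275) lies on the minus strand of the unplaced scaffold GL896199.1, from 11704 to 57267. Each of these intervals is the whole gene as the deposited table gives it, introns included.

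PDK4 encodes pyruvate dehydrogenase kinase 4, which phosphorylates and so inactivates the pyruvate dehydrogenase complex, the entry of glucose carbon into the mitochondrial citrate cycle. In skeletal muscle it is known to be raised by fasting, fatty acids and glucocorticoids. UCP3 encodes uncoupling protein 3, a carrier of the inner mitochondrial membrane found mainly in skeletal muscle, and is known to be raised by the same states. PPARGC1A encodes PGC-1 alpha, a transcriptional coactivator of mitochondrial biogenesis and of fatty acid oxidation genes.

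The samples were LD muscle, taken at the lumbar level, of 12 castrated male pigs of the Laiwu breed, a Chinese breed with much fat inside its muscle. They carried the wild type genotype, received no treatment, were kept under similar feeding, and were labelled 60, 120, 240 or 400 d of age, with 3 libraries at each age. The time since the last feed is not given in the sources used here. The labels hold 1 entry for each age with 3 library columns under it, so libraries 1, 2 and 3 of an age are names without order.

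The labelled ages carry a doubt that bears on every direction below. For each of the 4 ages, the group means printed in a list of changed genes issued with the study lay closest to a group of libraries labelled with another age. The libraries labelled 60, 120, 240 and 400 d matched the means listed there under 240, 400, 120 and 60 d, with median absolute log2 differences of 0.0194 to 0.0198, while the next closest group differed by 0.385 to 1.07. In 2 other lists the label of 120 d held, and no other age was checked there. The study describes the list that holds counts as also covering 240 d, and that part was not compared with the libraries. Counts listed for 120 d were equal to those of library 3 labelled 120 d for 5980 of 5980 features, and at most 134 were equal in any other library. Values listed for 120 d in a breed comparison were also closest to the libraries labelled 120 d, at a median absolute log2 difference of 0.301 to 0.334 against 0.480 to 0.552 for the next group. Total counts divided by the mapped reads listed for the library of the same age and number had an SD of 0.0828 on the log2 scale over the 12 libraries with the ages as labelled, and of 0.199 with the ages of the list of changed genes. With the numbering inside ages that gave the smallest SD, the values were 0.0799 and 0.154. A separate RNA measurement of the study, by qRT-PCR, goes with the list of changed genes. It put EGR1, an immediate early gene, and FASN, the fatty acid synthase, higher at 240 than at 120 d. Here EGR1 had means of 43.9 ± 47.8 FPKM (SD) in the libraries labelled 120 d and 11.9 ± 7.66 FPKM in those labelled 240 d. That difference did not pass the test used below. The level of FASN in the labelled libraries is not given here. The study also measured PDK4 and other genes by qRT-PCR, and reports a strong correlation with its RNA-seq levels. The qRT-PCR values of PDK4 at each age are not given in the sources used here, so they could not be set beside the labels. Ages are given as labelled, and the conflict is not settled here. Which groups of libraries differ does not depend on their names, but which of a pair was the older does.

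The libraries held 9713813 to 13325327 counts each, with a median of 11201318, and 3 counts in a library correspond to 0.225 to 0.309 CPM, counts scaled to the depth of the library. Of the 12 skeletal muscle fibre markers, only 3 could be matched by symbol, and these were abundant: TNNC2 and DES, of fast troponin and of the fibre's intermediate filaments, summed to 14130 to 31150 FPKM (a level scaled to transcript length and library depth). The third, ACTA1, the actin of skeletal muscle fibres, was listed at 0 in 7 libraries and at 33100 to 57330 FPKM in the other 5, and a 0 for such a gene can be a failed estimate. The 5 were the 3 labelled 240 d and 1 each labelled 120 and 400 d. The single libraries labelled 120 and 400 d among these 5 each had the highest PDK4 of their age. At 240 d all 3 libraries are among the 5, so the highest is included in any case. The part of this in the results was not tested.

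PDK4 was the most variable of the 3 genes by the ratio of the highest to the lowest of the 12 libraries. Its level was 4.05, 172 and 117 FPKM in libraries 1, 2 and 3 labelled 60 d, and 4.66, 49.2 and 11.5 FPKM in those labelled 120 d. It was 509, 1072 and 617 FPKM in the libraries labelled 240 d, and 42.9, 360 and 422 FPKM in those labelled 400 d. The 3 libraries labelled 240 d all stood above the other 9, and the lowest values came from 1 library labelled 60 d and 1 labelled 120 d. Counts behind these levels ran from 142 to 46558, so counting error was small beside a range over the 12 libraries of 264.8-fold. The means were 97.6 ± 85.5, 21.8 ± 24.0, 732 ± 299 and 275 ± 203 FPKM (SD, n = 3) at the labelled ages of 60, 120, 240 and 400 d.

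UCP3 followed the same order over a narrower range of 28.9-fold. Its level was 9.34, 26.4 and 35.2 FPKM in the libraries labelled 60 d, and 5.11, 16.7 and 9.54 FPKM in those labelled 120 d. It was 71.5, 148 and 121 FPKM in the libraries labelled 240 d, and 28.2, 70.5 and 60.1 FPKM in those labelled 400 d. Again the libraries labelled 240 d stood above the other 9, here by a small margin over the highest library labelled 400 d. The means were 23.7 ± 13.2, 10.5 ± 5.85, 113 ± 38.7 and 52.9 ± 22.03 FPKM (SD, n = 3) at 60, 120, 240 and 400 d. Of the 13314 features tested, 121 (0.909%) had all 3 libraries labelled 240 d above the other 9 in FPKM, PDK4 and UCP3 among them.

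PPARGC1A was expressed at a lower level and had 2 outstanding libraries. Its level was 1.36, 3.99 and 20.5 FPKM in the libraries labelled 60 d, and 2.16, 1.67 and 0.806 FPKM in those labelled 120 d. It was 6.34, 15.5 and 62.6 FPKM in the libraries labelled 240 d, and 2.67, 3.08 and 4.63 FPKM in those labelled 400 d. Library 3 was by far the highest at both 60 and 240 d, and the library of 20.5 FPKM labelled 60 d exceeded 2 of the 3 labelled 240 d. The means were 8.61 ± 10.4, 1.55 ± 0.687, 28.2 ± 30.2 and 3.46 ± 1.03 FPKM (SD, n = 3). On the scale of FPKM, PDK4 ranked 431, UCP3 1665 and PPARGC1A 7312 among all features by the median over the 12 libraries.

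**Figure D1:**
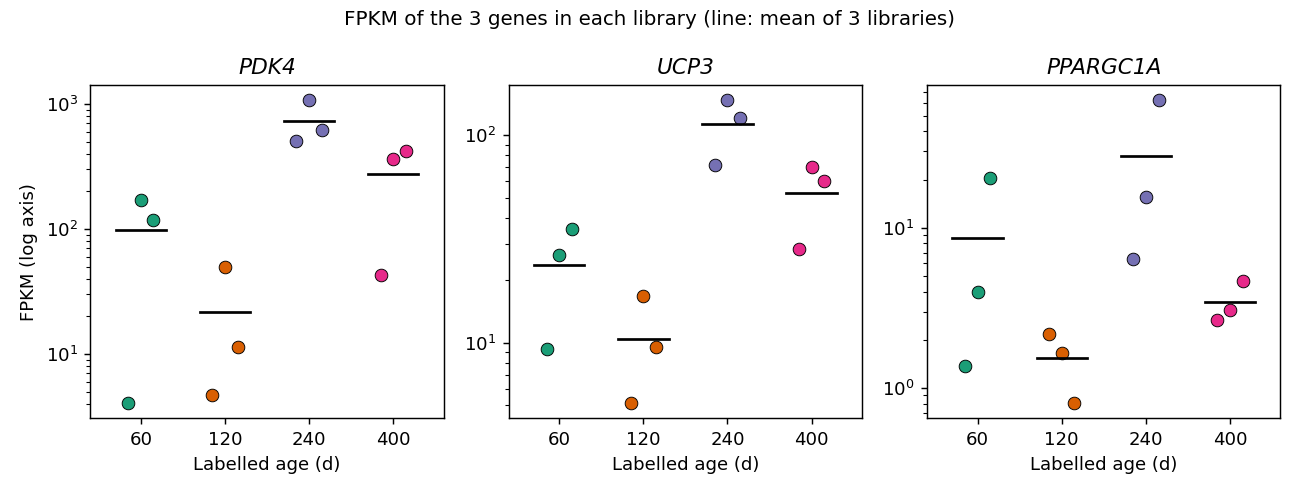
FPKM on a log axis of PDK4, UCP3 and PPARGC1A in each of the 12 libraries, by labelled age; points are libraries 1 to 3 from left to right and lines are means of 3. The libraries labelled 240 d lie above all others for PDK4 (509 to 1072 FPKM) and UCP3 (71.5 to 148 FPKM), while for PPARGC1A 1 library labelled 60 d (20.5 FPKM) lies among them.

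Over the 4 labelled ages all 3 genes passed the test. The adjusted p of edgeR's quasi-likelihood F test, with Benjamini-Hochberg adjustment over the features tested, was 0.043 for PDK4, 0.00769 for UCP3 and 0.0273 for PPARGC1A. At this threshold of 0.05 the test called 2639 features, 19.8% of those tested. The call of UCP3 held when any 1 of the 12 libraries was left out (adjusted p 0.00668 to 0.0211). That of PDK4 held in 4 of 12 such fits (0.0209 to 0.0971), those without library 1 or 2 labelled 60 d, library 2 labelled 120 d or library 1 labelled 400 d. That of PPARGC1A held in 7 of 12 (0.0104 to 0.11), and was lost without library 2 or 3 labelled 120 d, library 3 labelled 240 d or library 1 or 2 labelled 400 d.

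The largest step lay between the libraries labelled 120 d and 240 d, where all 3 genes were higher at 240 d. PDK4 rose by 5.08 on the log2 scale (SE 1.29, edgeR adjusted p = 0.0458), UCP3 by 3.45 (SE 0.57, adjusted p = 0.0217) and PPARGC1A by 4.18 (SE 1.0, adjusted p = 0.0409). Of the features tested, 682 (5.12%) passed in this comparison, 294 (2.21%) of them in the direction of the 3 genes. For none of the 3 did the 2 groups overlap in FPKM, which held, with 240 d above 120 d, for 16.7% of features. These directions rest on the labels: with the ages named as in the list of changed genes, the log2 change called 240 over 120 d is -2.91 for PDK4 (adjusted p = 0.115), -2.28 for UCP3 (0.0249) and -1.76 for PPARGC1A (0.204). An exact permutation test of 3 against 3 libraries cannot give a two-sided p below 0.1, so the test rests on the spread that the fit shares over all 12 libraries. In bulk tissue, fewer cells of a type and less RNA per cell cannot be told apart.

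These calls lay near the threshold and depended on single libraries. Without 1 library the change of PDK4 stayed between 4.56 and 6.49, but it passed the test in only 4 of 12 fits, those without library 1, 2 or 3 labelled 60 d or library 1 labelled 400 d. UCP3 kept its call in 9 of 12 fits (3.09 to 3.93). It lost it without library 3 labelled 120 d (adjusted p = 0.0595) or library 2 or 3 labelled 240 d (0.076 and 0.091). PPARGC1A passed in 5 of 12 fits (2.78 to 4.65), those without library 1, 2 or 3 labelled 60 d, library 1 labelled 240 d or library 2 labelled 400 d. Its smallest change came without library 3 labelled 240 d (adjusted p = 0.127). The number of features called was itself unstable, from 0 without library 3 labelled 120 d to 1376 without library 1 labelled 60 d.

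Against the libraries labelled 60 d, those labelled 240 d were higher in UCP3 by 2.28 on the log2 scale (SE 0.54, edgeR adjusted p = 0.0249). In that comparison 1509 features (11.3%) passed, 5.51% of all tested being higher at 240 d. The call of UCP3 was lost without library 1 labelled 60 d (adjusted p = 0.0547) and without library 2 or 3 labelled 240 d (0.0818 and 0.0616). The difference was 2.91 (SE 1.16, adjusted p = 0.115) for PDK4, whose groups did not overlap either (14.4% of features lay wholly above), and 1.76 (SE 0.90, adjusted p = 0.204) for PPARGC1A, whose groups overlapped. Library 3 labelled 60 d decided the latter: without it the difference of PPARGC1A was 3.49 (adjusted p = 0.0355).

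The libraries labelled 400 d were higher than those labelled 120 d in UCP3 alone among the 3 genes by this test, by 2.33 on the log2 scale (SE 0.55, edgeR adjusted p = 0.0204), where 1847 features (13.9%) passed and 5.55% of all tested were higher. UCP3 lost that call without library 1 or 3 labelled 120 d (0.0567 and 0.0537) or library 2 or 3 labelled 400 d (0.0822 and 0.0518). PDK4 differed by 3.67 (SE 1.20, adjusted p = 0.0608), and PPARGC1A by 1.17 (SE 0.91, adjusted p = 0.398). The difference of PDK4 passed with DESeq2 (adjusted p = 0.0176), without the count filter (0.0495) and without library 1 labelled 60 d (0.0233). In FPKM the groups of UCP3 and PPARGC1A did not overlap, with 400 d above 120 d in 18.6% of features, while the lowest PDK4 value labelled 400 d (42.9 FPKM) lay below the highest labelled 120 d (49.2 FPKM).

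No feature passed between 120 d and 60 d or between 400 d and 240 d with edgeR (0.0% in each), although 1384 and 1176 features had an unadjusted p under 0.05 and DESeq2 called 72 and 66. From 60 to 120 d the log2 changes were -2.17 (SE 1.13) for PDK4, -1.17 (SE 0.53) for UCP3 and -2.42 (SE 0.94) for PPARGC1A, with adjusted p of 0.544, 0.475 and 0.424. From 240 to 400 d they were -1.41 (SE 1.10), -1.12 (SE 0.52) and -3.01 (SE 0.94), with adjusted p of 0.748, 0.572 and 0.431. All 3 genes had their 3 values labelled 400 d below the 3 labelled 240 d, as did 9.13% of features. Between 400 d and 60 d, the pair with the most features called (3124, 23.5%), none of the 3 genes passed: the log2 changes were 1.497 (SE 1.11, adjusted p = 0.336) for PDK4, 1.17 (SE 0.53, adjusted p = 0.123) for UCP3 and -1.25 (SE 0.89, adjusted p = 0.32) for PPARGC1A. The sign for PPARGC1A rested on library 3 labelled 60 d, without which the change was 0.48 (adjusted p = 0.681).

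Read as an order of means, PDK4 and UCP3 both ran 240, 400, 60 and 120 d from high to low, and PPARGC1A ran 240, 60, 400 and 120 d. No pair of neighbours in these orders passed the test for any of the 3 genes. The comparisons that passed lay 2 or 3 places apart.

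**Figure D2:**
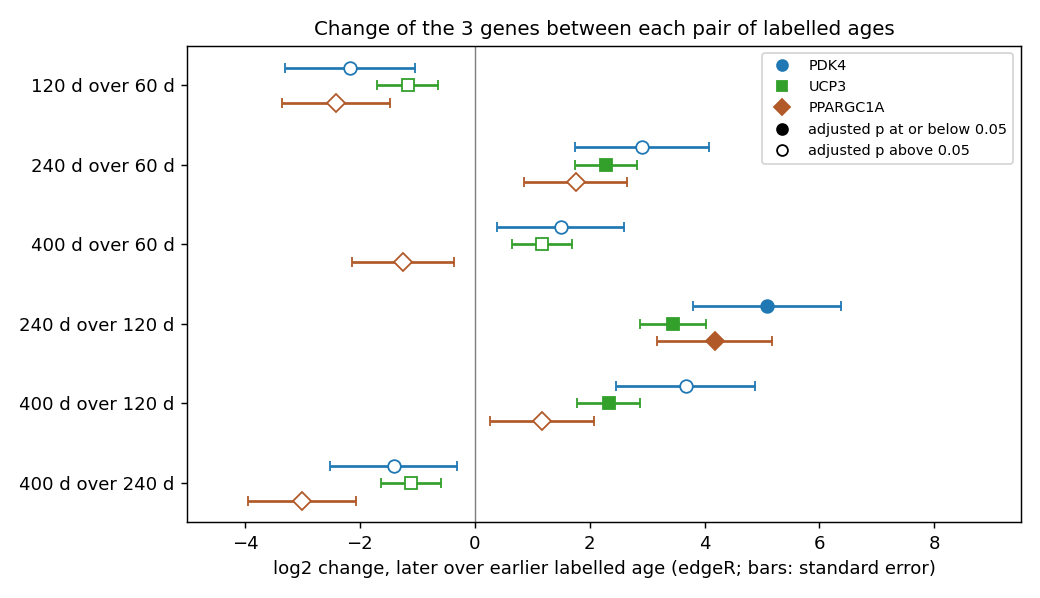
The log2 change of each gene between each pair of labelled ages, later over earlier, from edgeR; bars are standard errors and filled symbols have an adjusted p at or below 0.05. The filled symbols are the 3 genes at 240 d over 120 d and UCP3 at 240 d over 60 d and 400 d over 120 d.

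Within a labelled age the pigs differed widely. The highest library exceeded the lowest by 42.4-fold at 60 d, 10.6-fold at 120 d, 2.11-fold at 240 d and 9.83-fold at 400 d for PDK4. For UCP3 the same ratios were 3.77, 3.27, 2.07 and 2.498, and for PPARGC1A 15.02, 2.68, 9.87 and 1.73. PDK4 and UCP3 thus had their smallest ratio at 240 d, and PPARGC1A at 400 d.

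PDK4 and UCP3 were high in the same pigs. Over the 12 libraries the log2(FPKM + 0.1) of PDK4 and UCP3 had a Pearson r of 0.964 (permutation p = 2e-05, the smallest that the permutations can give) and a Spearman rho of 0.951 (permutation p = 2e-05), each with an adjusted p of 6e-05 over the 3 pairs of genes. Without the 2 libraries farthest from the median of PDK4, r was 0.955. That permutation exchanges libraries between ages, so its p includes the differences between ages that the genes share. With the mean of each labelled age subtracted, r was 0.931, with a p of 0.0054 (adjusted 0.016 over the 3 pairs) in an exact permutation of libraries within ages. The library lowest in PDK4 was also the lowest in UCP3 at 4 of 4 ages. The library highest in PDK4 was the highest in UCP3 at 2 of 4 ages.

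PPARGC1A went less closely with either. Its r was 0.709 with PDK4 (permutation p = 0.0042, adjusted p = 0.0042) and 0.755 with UCP3 (permutation p = 0.0027, adjusted p = 0.004), and rho was 0.825 with each (permutation p = 0.0016, adjusted p = 0.0016). Without the 2 farthest libraries r was 0.704 and 0.772, and with age means subtracted it was 0.451 and 0.541, neither of which passed the exact permutation within ages (p = 0.37 and 0.15, adjusted 0.37 and 0.23). PPARGC1A shared its lowest library with each of the others at 3 of 4 ages and its highest at 1. The difference between these coefficients was not tested.

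**Figure D3:**
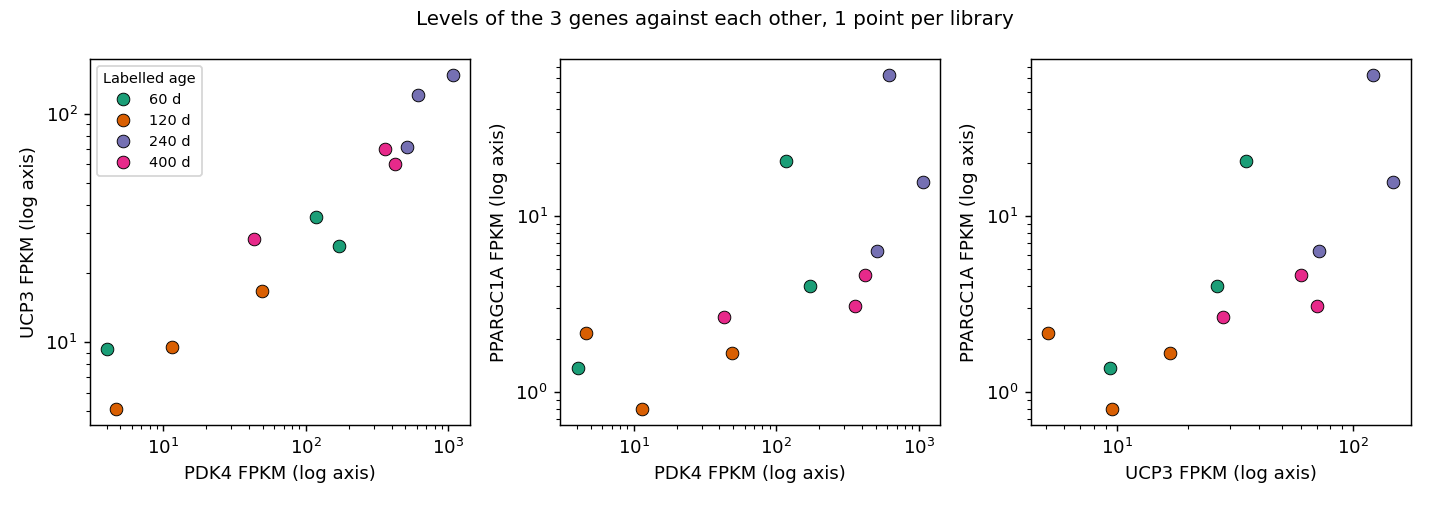
FPKM of each pair of the 3 genes on log axes, 1 point per library, coloured by labelled age. PDK4 and UCP3 lie close to a line (r 0.964 on the log2 scale) within as well as between ages, and PPARGC1A is more scattered against PDK4 (r 0.709) and UCP3 (r 0.755).

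Among 6902 genes with a symbol, a test result and a mean of at least 1 FPKM, UCP3 was the gene most like PDK4 in its pattern over the 12 libraries, and PDK4 the gene most like UCP3. After UCP3, the genes most like PDK4 were HOOK3, an adaptor of microtubule motors (r 0.958), IL6ST, the shared receptor subunit gp130 of the interleukin 6 family (r 0.944), KLHL9, a substrate adaptor of a ubiquitin ligase (r 0.933), and LPIN1, a phosphatidate phosphatase that also acts as a coactivator with PGC-1 alpha (r 0.923). LPIN1 ran at 10.97 ± 7.79, 5.41 ± 2.41, 35.5 ± 14.7 and 20.9 ± 2.19 FPKM (SD, n = 3) at 60, 120, 240 and 400 d, the order of means of PDK4 and UCP3. HOOK3 and IL6ST moved over a small range in comparison, from 1.39 ± 0.172 to 3.24 ± 0.320 FPKM and from 11.6 ± 1.82 to 17.2 ± 0.813 FPKM between 120 and 240 d.

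The genes most like UCP3 after PDK4 were LPIN1 (r 0.960), HOOK3 (r 0.948), SLC43A2, a transporter of large neutral amino acids (r 0.948), and OGFOD1, a prolyl hydroxylase of a ribosomal protein (r 0.941). SLC43A2 rose in mean from 18.8 ± 5.91 FPKM at 120 d to 55.3 ± 17.7 FPKM at 240 d. The list for PPARGC1A shared none of these: PRKAG2, a regulatory subunit of the energy sensor AMPK (r 0.935), KSR1, a scaffold of MAP kinase signalling (r 0.924), WDR82 (r 0.921), PAK1IP1 (r 0.905) and DGKD, a diacylglycerol kinase (r 0.903). PRKAG2 had means of 5.97 ± 4.10, 3.30 ± 0.772, 18.4 ± 18.0 and 4.50 ± 0.626 FPKM, with the wide spread at 60 and 240 d that PPARGC1A also had. PPARGC1A ranked 504 by likeness to PDK4 and 365 by likeness to UCP3. These coefficients describe 12 libraries that share their 4 ages, and carry no test.

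PDK1, PDK2 and PDK3 encode the other kinases of the pyruvate dehydrogenase complex, and PDK4 ranged from a small part of this family to most of it. PDK4 made up 2.75, 50.2 and 48.0% of the summed FPKM of the 4 kinases in the libraries labelled 60 d and 4.02, 32.2 and 9.37% in those labelled 120 d. It made up 80.2, 89.0 and 79.5% in those labelled 240 d and 27.4, 71.4 and 73.1% in those labelled 400 d. PDK2 was most of the rest, with means of 136 ± 21.1, 94.2 ± 2.17, 127 ± 19.1 and 123 ± 21.1 FPKM, and it did not pass the test over the ages (edgeR adjusted p = 0.0651). PDK3 stood at 4.998 ± 1.34, 8.70 ± 1.26, 4.97 ± 1.05 and 8.20 ± 1.57 FPKM and passed over the ages (adjusted p = 0.00776), with its lower means at 60 and 240 d.

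UCP2, the nearest relative of UCP3 and expressed in many tissues, lies 11700 bases from it on the same strand (chr9:9147993-9155011). UCP2 was the weaker gene in every library. The ratio of UCP3 to UCP2 in FPKM was 1.93, 9.62 and 7.89 in the libraries labelled 60 d, 1.55, 1.48 and 2.20 in those labelled 120 d, 30.3, 71.2 and 45.5 in those labelled 240 d, and 11.2, 81.4 and 36.7 in those labelled 400 d. Where UCP3 rose from 120 to 400 d, UCP2 fell by 1.89 on the log2 scale (SE 0.48, edgeR adjusted p = 0.0272), from 6.31 ± 4.35 to 1.67 ± 0.827 FPKM. That call was lost without library 2 labelled 120 d or library 2 or 3 labelled 400 d (adjusted p up to 0.119). UCP2 between 120 and 240 d differed by -1.41 (SE 0.47, adjusted p = 0.0874).

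PPARGC1B, the paralog of PPARGC1A, stayed between 2.001 ± 0.932 and 2.53 ± 1.14 FPKM at the 4 ages and did not pass the test (edgeR adjusted p = 0.866). The ratio of PPARGC1A to PPARGC1B was 0.573, 1.67 and 8.35 in the libraries labelled 60 d and 0.566, 0.791 and 0.486 in those labelled 120 d. It was 1.78, 18.1 and 24.8 in those labelled 240 d and 1.51, 2.55 and 1.53 in those labelled 400 d. PPARGC1A was thus below its paralog in all 3 libraries labelled 120 d and above it in all 6 labelled 240 and 400 d.

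**Figure D4:**
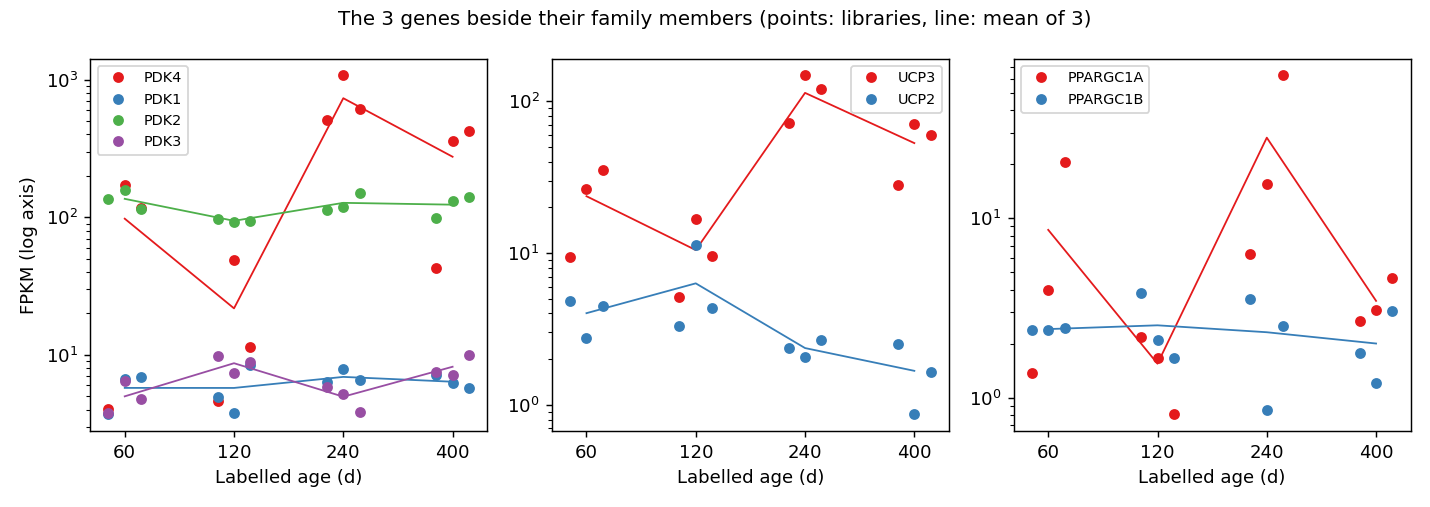
FPKM on log axes of PDK4 with PDK1, PDK2 and PDK3, of UCP3 with UCP2 and of PPARGC1A with PPARGC1B, by labelled age; points are libraries and lines join means of 3. PDK2 means stay between 94.2 and 136 FPKM while PDK4 means run from 21.8 to 732 FPKM.

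The genes around the 3 were taken from lists of symbols, which could be matched and tested only in part. Tested were 19 of 29 genes of fatty acid uptake and oxidation, where CD36, FABP3 and LPL were not matched. For glucose uptake, glycogen and glycolysis 17 of 21 were tested, and 11 of 21 for fasting, FOXO and glucocorticoids. The number was 11 of 13 for pyruvate entry, 18 of 24 for regulators, 8 of 10 for carriers and 18 of 22 for oxidative phosphorylation. Of 19 tested genes of fatty acid uptake and oxidation, 3 rose from 120 to 240 d, where 2.21% of all features tested rose, none fell and 16 did not pass, with a median log2 change of 0.61 against 0.02 over all features tested. ACSL1, which activates long-chain fatty acids, rose by 2.07 (SE 0.30, edgeR adjusted p = 0.0217), from 33.7, 52.5 and 43.6 FPKM in the libraries labelled 120 d to 179, 139 and 224 FPKM in those labelled 240 d. ACADM, the medium-chain acyl-CoA dehydrogenase, rose by 0.90 (SE 0.19, adjusted p = 0.0328), and ETFDH, which passes electrons from fatty acid oxidation to the respiratory chain, by 0.86 (SE 0.22, adjusted p = 0.0447). From 60 to 400 d, where 10.8% of all features tested rose and 12.7% fell, 6 of the 19 rose and 1 fell: ACSL1 rose by 1.98 (SE 0.30, adjusted p = 0.00198) and ACADM by 0.98 (SE 0.19, adjusted p = 0.00564), and ETFB, a subunit of the electron carrier of that chain, fell by 0.92 (SE 0.26, adjusted p = 0.0242). Apart from the family members above, the list members that the rule did not name, ETFDH here and NDUFS1 and PFKFB3 below, were chosen after their values were seen.

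Of 17 tested genes of glucose uptake, glycogen and glycolysis, none rose and 2 fell from 120 to 240 d, where 2.91% of all features tested fell, with a median log2 change of -0.32. PGAM2, the muscle phosphoglycerate mutase, fell by 1.15 (SE 0.26, edgeR adjusted p = 0.0353), from 7726, 5931 and 8611 FPKM to 3506, 3897 and 2570 FPKM. PFKFB3, which makes the activator of phosphofructokinase, fell by 4.17 (SE 0.88, adjusted p = 0.031), from 12.1, 107 and 88.5 FPKM to 6.34, 2.26 and 3.14 FPKM, the lower library labelled 120 d lying far from the other 2. From 60 to 400 d, beside 10.8% and 12.7% of all features, 1 rose and 4 fell. HK1, a hexokinase, fell by 1.85 (SE 0.31, adjusted p = 0.0029), and PGAM2 by 1.02 (SE 0.26, adjusted p = 0.0171). PFKFB1, the isoform of liver and muscle, rose by 1.40 (SE 0.47, adjusted p = 0.0496) in counts, at means of only 1.0 ± 1.10 and 1.43 ± 0.198 FPKM.

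Of 11 tested genes of the fasting, FOXO and glucocorticoid response, 1 rose and none fell from 120 to 240 d, beside 2.21% and 2.91% of all features tested, with a median log2 change of 0.98. It was FBXO32, the muscle ubiquitin ligase atrogin-1, at 5.21, 17.9 and 7.88 FPKM in the libraries labelled 120 d and 85.5, 122 and 214 FPKM in those labelled 240 d (log2 change 3.803, SE 0.76, edgeR adjusted p = 0.028). In the libraries labelled 60 d FBXO32 was at 2.63, 45.3 and 22.3 FPKM, the lowest being the library that was also lowest in PDK4. From 60 to 400 d, beside 10.8% and 12.7% of all features, 2 rose and 1 fell: FBXO32 rose by 2.16 (SE 0.71, adjusted p = 0.0455), FOXO4, a FOXO transcription factor, by 0.88 (SE 0.19, adjusted p = 0.00791), and EIF4EBP1, a repressor of translation, fell by 1.35 (SE 0.21, adjusted p = 0.00221). The 11 genes had a median r of 0.707 with PDK4, 0.615 with UCP3 and 0.319 with PPARGC1A, where all features tested had medians of -0.022, -0.029 and -0.009. With age means subtracted these medians were 0.584, 0.371 and 0.037.

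Of 11 tested genes of the pyruvate dehydrogenase complex and pyruvate entry, the target of PDK4, none passed from 120 to 240 d (median log2 change 0.48). From 60 to 400 d only PDK3 did, rising by 1.23 (SE 0.20, edgeR adjusted p = 0.0029). Of all features tested, 2.21% rose and 2.91% fell from 120 to 240 d, and 10.8% and 12.7% from 60 to 400 d. These shares also stand beside the next 2 lists. At the shares from 120 to 240 d, the absence of calls in lists this small is not a result about them. Of 18 tested regulators around PGC-1 alpha none passed from 120 to 240 d (median 0.21). From 60 to 400 d only NRIP1, a corepressor, was called, lower at 400 d; its feature had 83 and 32 counts in 2 libraries labelled 60 d and was at 0 in the other 10 libraries, so no fold is given. Of 8 mitochondrial carriers none passed from 120 to 240 d, and from 60 to 400 d SLC25A5, an adenine nucleotide carrier, fell by 1.62 (SE 0.40, adjusted p = 0.0148).

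Of 18 tested genes of oxidative phosphorylation and the citrate cycle, NDUFS1, a core subunit of complex I, alone rose from 120 to 240 d, by 0.81 (SE 0.20, edgeR adjusted p = 0.0414), and none fell, beside 2.21% and 2.91% of all features tested. From 60 to 400 d none rose and 5 fell, beside 10.8% and 12.7% of all features. Among them NDUFV1, another core subunit of complex I, fell by 1.05 (SE 0.24, adjusted p = 0.0101) and COX4I1, of cytochrome oxidase, by 1.01 (SE 0.23, adjusted p = 0.0112). The median log2 change of this list from 120 to 240 d was 0.17.

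Between 60 and 400 d, the calls of ACSL1, ACADM, FOXO4, EIF4EBP1, HK1, PDK3 and COX4I1 held in 12 of 12 fits without 1 library. NDUFV1 lost its call without library 2 labelled 400 d (adjusted p = 0.051), PGAM2 without library 3 labelled 400 d (0.063) and SLC25A5 without library 1 or 2 labelled 400 d (up to 0.061). ETFB lost its call without library 1 or 2 labelled 60 d or library 1 or 2 labelled 400 d. FBXO32 and PFKFB1 passed in 4 of 12 such fits, FBXO32 in those without library 2 labelled 60 d, library 1 or 2 labelled 120 d or library 3 labelled 240 d, and PFKFB1 in those without library 3 labelled 60 d, library 2 or 3 labelled 120 d or library 3 labelled 400 d. NRIP1 passed in 6 of 12 fits, not in those without library 2 or 3 labelled 60 d, library 3 labelled 240 d or any of those labelled 400 d.

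Between 120 and 240 d, ACSL1 held in 10 of 12 fits, but not without library 3 labelled 120 d or library 3 labelled 240 d (adjusted p up to 0.091). PFKFB3 held in 8 of 12, but not without library 2 or 3 of either age, and FBXO32 in 7 of 12, being lost without any library labelled 120 d or library 2 or 3 labelled 240 d. ACADM (6 of 12 fits), ETFDH (5 of 12), NDUFS1 (4 of 12) and PGAM2 (4 of 12) lost their calls without any of the 6 libraries labelled 120 or 240 d, ETFDH also without library 3 labelled 400 d, and NDUFS1 and PGAM2 also without library 1 or 3 labelled 400 d.

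**Figure D5:**
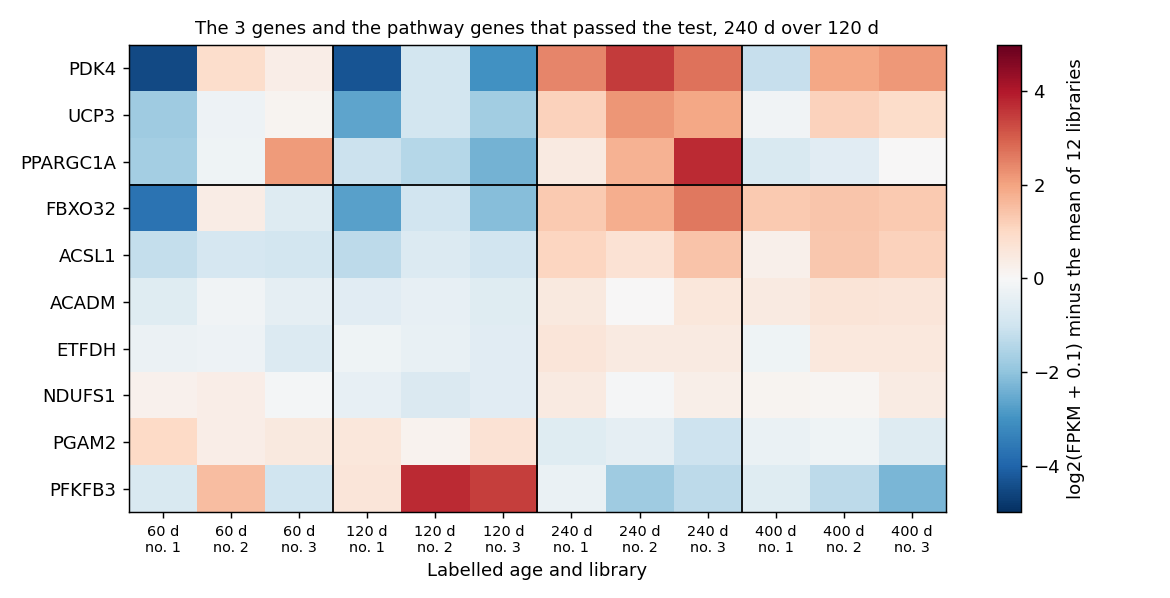
log2(FPKM + 0.1) minus its mean over the 12 libraries, for the 3 genes and for the 7 pathway genes that passed the test between the libraries labelled 120 and 240 d, which the figure therefore shows as a description. FBXO32 is lowest at 60 and 120 d in the library lowest in PDK4 and UCP3, but nearly flat at 400 d (85.4 to 91.98 FPKM), and PFKFB3 is high in 2 libraries labelled 120 d.

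The summed levels of markers of other cells, and of immediate early and stress genes, also differed between the labelled ages. The 4 matched connective tissue genes, none of them at 0, summed to 623 to 2064 FPKM at 60 d, 950 to 1378 FPKM at 120 d, 482 to 706 FPKM at 240 d and 208 to 489 FPKM at 400 d, so the libraries labelled 240 d lay below those labelled 120 d. Of these 4 genes none passed between 120 and 240 d. From 120 to 400 d 2 fell, where 8.32% of all features tested fell, and from 60 to 400 d 2 fell, where 12.7% fell. The highest sum, 2064 FPKM, was that of library 1 labelled 60 d, which had the lowest PDK4. Their median r with PDK4 was -0.688, and -0.697 with age means subtracted. The 8 immediate early and stress genes summed to 627 to 2020, 569 to 1801, 224 to 548 and 105 to 442 FPKM at 60, 120, 240 and 400 d. None of these 8 passed between 120 and 240 d, while 4 fell from 60 to 240 d, where 5.83% of all features tested fell, and 5 from 60 to 400 d, where 12.7% fell.

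The 4 fat cell genes summed to 108 to 199, 112 to 161, 166 to 251 and 146 to 188 FPKM, none of them passing in any of the 6 comparisons. PNPLA2, named after its values were seen, made up most of that sum in every library, at 89.8 to 198 FPKM. PLIN1, CIDEC and LIPE each stayed at or below 21.7 FPKM. The 5 leukocyte genes summed to 13.5 to 19.8, 14.8 to 51.0, 7.39 to 14.5 and 2.83 to 9.75 FPKM. Of the 4 that were tested, 2 fell from 120 to 400 d and 1 from 60 to 400 d, where 8.32% and 12.7% of all features fell. The 3 endothelial genes summed to 50.03 to 106, 53.5 to 78.3, 47.0 to 68.3 and 28.7 to 47.9 FPKM, and 2 of them fell from 60 to 400 d, where 12.7% of all features fell. The 4 slow fibre genes summed to 7142 to 20770, 7193 to 9523, 5966 to 11650 and 9267 to 14780 FPKM, and none of them passed in any comparison. The 7 growth stage genes summed to 3753 to 6067, 3884 to 5706, 3550 to 10960 and 6952 to 7314 FPKM. The feature with the symbol MYH8, of the perinatal myosin heavy chain, named after its values were seen, made up 97.7 to 99.9% of that sum in each library. It did not pass over the ages (edgeR adjusted p = 0.42). Its means were 4888, 4895, 6935 and 7148 FPKM at 60, 120, 240 and 400 d, against 18.1, 11.9, 9.45 and 5.20 FPKM for MYH3 of the same list. Whether reads of other myosin genes were counted under MYH8 was not tested, so the sum is no measure of growth stage. Of the 7 genes none rose, and 5 fell from 60 to 400 d with a median log2 change of -2.43, where 12.7% of all features fell. The number that fell was 3 from 60 to 240 d (5.83% of all features), 3 from 120 to 400 d (8.32%) and 1 from 120 to 240 d (2.91%). The part of these lists in the changes of PDK4, UCP3 and PPARGC1A was not tested.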

How the data were processed

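RNA of 12 LD muscles was sequenced in paired ends of 125 cycles on a HiSeq2500. Per the study's methods, the authors mapped reads to Sscrofa10.2 with TopHat2 and estimated levels with Cufflinks. The submitters' processing notes instead name Bowtie 0.12.2 beside Cufflinks and a mouse build; the coordinates in the tables are of pig. The authors deposited, for each library, whole-number counts per gene and FPKM values (fragments scaled to transcript length and library depth), and a normalized column that was not used here. How the counts were made, and whether they used strand, is not given in the sources used here.

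The files pair no symbols with their identifiers; a table of gene names matched 11472 of 22658 features. Counts were tested with edgeR 4.0.16 (R 4.3.3), TMM scaling and 1 quasi-likelihood fit over the 12 libraries, leaving out features whose mean stayed under 10 counts at every labelled age; a call is a Benjamini-Hochberg adjusted p at or below 0.05. SE is the log2 change divided by the square root of F. The code was tested on simulated data. Correlations used log2(FPKM + 0.1), with 100000 two-sided permutations (scipy 1.17.1), and exactly over the 1296 arrangements that keep libraries in their age. The mapped reads used in the check of the ages were those the study lists per library. Groups came from the labels, and no 2 libraries of the same labelled age were alike enough to be 1 library deposited again. Pairs of libraries from different labelled ages were not compared in this way. Alternatives were other scalings, filters, tests (DESeq2 1.42.0, limma 3.58.1), thresholds, ages and single libraries left out.

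The members and lists were chosen with earlier results of these data known. The members were also set beside their family members PDK1, PDK2, PDK3, UCP2 and PPARGC1B, which the naming rule that follows does not cover as such. Genes are named if they are members, among the 2 largest rises and 2 largest falls called in each pathway list between the pair of ages with the most calls (400 over 60 d), or among the 5 genes most like a member; marker lists are given as counts and sums.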

Additional observations from a re-analysis of the deposited data

How the results depend on the processing

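RLE scaling and a minimum mean of 50 counts changed no call and no count of calls by over 1.5 times. DESeq2 and the fit without a count filter called PDK4 at 400 over 120 d (log2 change 3.65, adjusted p 0.0176, and 3.69, 0.0495). The fit of only the 2 ages compared lost UCP3 at 240 over 60 d (2.29, adjusted p 0.056). limma on log2(FPKM + 0.1) and on log2(FPKM + 1) lost PPARGC1A over the ages (adjusted p 0.073 and 0.0824) and at 240 over 120 d (3.59 and 2.99, with adjusted p 0.0555 and 0.0606). With an adjusted p at or below 0.01 and an absolute log2 change of at least 1, UCP3 over the ages was the only call left among the 3 genes: PDK4 (adjusted p 0.043 over the ages and change 5.08 at 240 over 120 d), UCP3 (2.28 at 240 over 60 d, 3.45 at 240 over 120 d, 2.33 at 400 over 120 d) and PPARGC1A (0.0273 over the ages, 4.18 at 240 over 120 d) missed it. The cause was not tested.

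With the ages renamed as in the list of changed genes, the direction turned in 13 comparisons. PDK4 became 1.41 at 120 over 60 d, -1.50 at 240 over 60 d, -3.67 at 400 over 60 d, -2.91 at 240 over 120 d and -5.08 at 400 over 120 d. UCP3 became 1.11, -1.17, -2.33, -2.28 and -3.45 in the same comparisons. PPARGC1A became 3.01 at 120 over 60 d, -1.76 at 240 over 120 d and -4.18 at 400 over 120 d. Of 22 changes of pathway genes named in the report, the direction turned in 21, all but NRIP1, for which both groups were then at 0.

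The features called numbered 4177 over the ages, 72 at 120 over 60 d, 2356 at 240 over 60 d, 1767 at 240 over 120 d and 66 at 400 over 240 d with DESeq2. They were 2 at 120 over 60 d without the filter, 238 at 240 over 60 d and 1825 at 400 over 60 d with only the 2 ages, and 414 at 240 over 120 d with limma on log2(FPKM + 0.1). At the stricter threshold they were 523 over the ages, 112 at 240 over 60 d, 833 at 400 over 60 d, 0 at 240 over 120 d and 155 at 400 over 120 d. With the ages renamed they were 3124 at 240 over 60 d, 1847 at 400 over 60 d, 1509 at 240 over 120 d and 682 at 400 over 120 d.

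Leaving out 1 library at a time gave an adjusted p over the ages of 0.0209 to 0.0971 for PDK4 and 0.0104 to 0.11 for PPARGC1A. The log2 change of PDK4 was 4.56 to 6.49 at 240 over 120 d and 3.17 to 5.10 at 400 over 120 d. That of UCP3 was 1.90 to 2.71 at 240 over 60 d, 3.09 to 3.93 at 240 over 120 d and 1.99 to 2.83 at 400 over 120 d. That of PPARGC1A was 0.40 to 3.49 at 240 over 60 d, -1.75 to 0.48 at 400 over 60 d and 2.78 to 4.65 at 240 over 120 d. The features called ranged from 1375 to 2894 over the ages, 255 to 1552 at 240 over 60 d, 1335 to 3227 at 400 over 60 d, 0 to 1376 at 240 over 120 d and 213 to 2413 at 400 over 120 d. Correlations between the 3 genes stayed at 0.953 to 0.975 (PDK4 and UCP3), 0.662 to 0.753 (PDK4 and PPARGC1A) and 0.715 to 0.805 (UCP3 and PPARGC1A). In the permutation within ages, added after seeing the data, PDK4 and UCP3 passed (0.931), but PPARGC1A passed with neither PDK4 (0.451) nor UCP3 (0.541).

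For the pathway genes, the other alternatives, applied to them after seeing the data, turned no direction. With only the 2 ages compared, NDUFS1 and PGAM2 at 240 over 120 d, UCP2 at 400 over 120 d, and ETFB, FBXO32, NRIP1 and PFKFB1 at 400 over 60 d lost their calls. limma on log2(FPKM + 0.1) lost ETFDH at 240 over 120 d, and both limma fits lost NRIP1, PDK3 and PFKFB1 at 400 over 60 d. DESeq2 lost NRIP1.

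No paired analysis was possible because the labels give no replicate numbers and each library is a different pig. Depth did not limit the 3 genes, whose lowest count was 56.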

Other observations

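Within the labelled ages, genes of oxidative phosphorylation and the citrate cycle ran against the 3 genes rather than with them. Over the 18 tested genes the median r with age means subtracted was -0.395 with PDK4, -0.625 with UCP3 and -0.333 with PPARGC1A, where all features tested had medians of 0.015, 0.007 and -0.004. Without that subtraction the medians were -0.100, -0.140 and -0.044. The 4 slow fibre genes had within-age medians of -0.480, -0.580 and -0.387. These are descriptions over 12 libraries, noticed after the values were seen, and carry no test.

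ESRRG, a nuclear receptor that works with PGC-1 alpha, was among the regulators closest to PPARGC1A and was picked out after its values were seen. Its r with PPARGC1A was 0.886, and 0.937 with age means subtracted, against 0.517 with PDK4 and 0.539 with UCP3. It stood at 3.53 ± 2.76, 0.871 ± 0.299, 3.37 ± 2.41 and 1.41 ± 0.312 FPKM (SD, n = 3) at 60, 120, 240 and 400 d and did not pass over the ages (edgeR adjusted p = 0.0776).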
